A study of Homo sapiens with 2 samples.

Results

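RNA-rich cells are the cells of a library that yield the most RNA molecules, counted as unique molecular identifiers (UMIs), the tags that mark each captured molecule once. They were selected here on that measured value. In each library, the 10% of kept cells with the most UMIs were set against the middle cells, those between the 40th and the 60th percentile of total UMIs. There were 622 RNA-rich cells and 1242 middle cells among 6214 kept cells, with 449 RNA-rich cells of 4485 in CHLA9 and 173 of 1729 in TC71. CHLA9 and TC71 are established Ewing sarcoma lines, tumor cells that carry a fusion of EWSR1 with an ETS gene, and each was sequenced as 1 droplet library of cultured cells. The CHLA9 culture was kept in IMDM containing 20% fetal bovine serum with insulin, transferrin and selenite, and its library was read on 2 models of sequencer. The TC71 culture was kept in RPMI containing 10% serum and its library was read on 1 of these models, so line, medium and sequencing cannot be told apart. Each line is 1 sample, so no test was made, no p-value is given, and every interval covers counting error only.

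A growing cell enlarges its RNA content from one division to the next, so that a cell about to divide holds more RNA than one just born. Most messengers keep pace with cell volume and hold a steady share of the pool, while genes of DNA replication and of mitosis are switched on in turn by E2F factors at the start of S phase and by the MuvB, B-MYB and FOXM1 complexes later. In a droplet library, the UMIs of a barcode also depend on capture, on the depth of sequencing and on whether more than 1 cell shared the droplet. The part of each of these in the totals was not tested.

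The libraries held 178489774 UMIs over 5077 barcodes in CHLA9 and 75408445 UMIs over 8468 barcodes in TC71, and 88.3% and 20.4% of the barcodes were kept. The libraries shared 16 barcodes, of which 3 passed the filters on UMIs, genes and mitochondrial UMIs in both. In CHLA9 the cut at the top stood at 56373.4 UMIs, with 56381 UMIs in the cell just inside and 56362 in the cell just outside. In TC71 it stood at 48051.6, with 48062 just inside and 48049 just outside. The middle cells of CHLA9 ran from 32240 to 37474 UMIs, with 32225 and 37480 in the cells just outside, and those of TC71 from 30848 to 35848, with 30838 and 35857 just outside. The median RNA-rich cell of CHLA9 had 66354 UMIs against 34552 in the middle, a ratio of 1.92, and that of TC71 had 54249 against 33370, a ratio of 1.626. The RNA-rich cells of CHLA9 reached further above the middle: 183 of 449 (40.8%) held at least 2 times the median of the middle cells, against 14 of 173 (8.09%) in TC71.

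**Figure D1:**
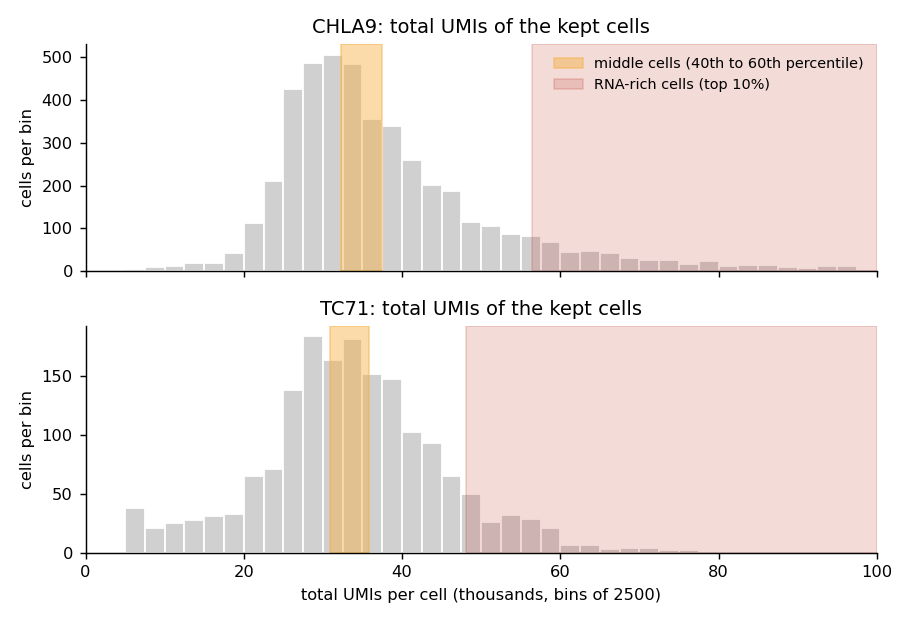
Total UMIs per kept cell (x axis, in units of 1000) against the number of cells in bins of 2500 UMIs (y axis) for CHLA9 (top) and TC71 (bottom). Orange marks the middle cells and red the RNA-rich cells, which begin at 56373.4 UMIs in CHLA9 and 48051.6 in TC71 and form the tail of 1 continuous distribution.

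Doublets, droplets with more than 1 cell, have more UMIs than single cells, and the lines differed in the share called. Scrublet, which scores each cell against simulated doublets, called 158 of the 449 RNA-rich cells of CHLA9 (35.2%) and 9 of its 897 middle cells (1.0%). In TC71 it called 2 of 173 RNA-rich cells (1.16%) and 3 of 345 middle cells (0.87%). The true share of doublets is unknown in both lines, and leaving out the called cells need not remove all doublets. No cell was removed for the values below. Values without the called cells are given for the sizes of the groups, the numbers of genes past the threshold, the phase shares and the cycle lists. When the called cells were left out and the cells ranked anew, 428 RNA-rich cells with a median of 59900 UMIs remained in CHLA9 and 172 with a median of 54154 in TC71. The mitochondrial share of UMIs was close in both groups. Its median was 7.44% in RNA-rich and 7.51% in middle cells of CHLA9, and 8.7% against 9.06% in TC71.

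Markers of the labelled lines were present in the RNA-rich cells of both. Levels are counts per 1000000 UMIs (CPM) after each cell was thinned to 10000 UMIs. CD99, a surface protein used to diagnose Ewing sarcoma, stood at 1090 CPM in RNA-rich and 1192 in middle cells of CHLA9, and at 384.4 against 412.8 in TC71. NR0B1, another marker of the lines, stood at 49.2 against 49.8 in CHLA9 and at 115.0 against 125.5 in TC71. NKX2-2 was low, at 8.24 against 10.4 in CHLA9 and at 32.4 against 35.1 in TC71. Of 20 markers of immune, erythroid, endothelial, epithelial, fibroblast, liver and glial cells, 10 in CHLA9 and 14 in TC71 had no UMI in the RNA-rich cells. The 20 together summed to 144.5 CPM in RNA-rich and 144.1 in middle cells of CHLA9, and to 341.0 against 333.3 in TC71. The keratin gene KRT18 made up most of both sums, and 4 of the 20 in CHLA9 and 2 in TC71 stood over 5 CPM.

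Most genes held the same share of UMIs in RNA-rich cells as in middle cells. Of 2702 genes with a mean of at least 50 CPM over RNA-rich and middle cells in each line, 2561 in CHLA9 (94.8%) and 2351 in TC71 (87.0%) had a log2 ratio of RNA-rich to middle CPM within 0.3 of 0, or 1.23-fold. The median log2 ratio was -0.01 in CHLA9 and 0.01 in TC71. A gene kept at a fixed number of molecules per cell would stand at -1.01 in CHLA9 and -0.742 in TC71, because RNA-rich cells had on average 2.013 and 1.673 times the UMIs of middle cells. None of the 2702 genes reached that value in CHLA9, and 2 did in TC71. At full depth, all 2702 genes in CHLA9 and 2701 in TC71 had more UMIs per RNA-rich cell than per middle cell. Since the cells were chosen on total UMIs, this and a median ratio near 0 follow largely from the selection. Genes detected per cell at equal depth differed little: the median was 3594 in RNA-rich and 3547 in middle cells of CHLA9, and 3397 against 3273 in TC71, with a standard deviation over middle cells of 118.2 and 169.4 genes.

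In CHLA9, 94 genes were higher by that measure (3.48% of the 2702) and 47 lower (1.74%). These numbers depended on the cells used: they were 140 and 59 without the called doublets, 166 and 74 without the 8% highest Scrublet scores, 15 and 11 with ratios averaged within phases, and 32 and 19 with the cycle mix weighted as described further on. In TC71, 261 were higher (9.66%) and 90 lower (3.33%). In both lines at once, 74 genes were higher (2.74%) and 17 lower (0.629%). Of the 74 higher genes, 35 belonged to the G2M list used for cell cycle scoring and 0 to the S list. Of the 17 lower genes, 10 belonged to the S list and 0 to the G2M list. Among all 2702 genes, 44 belonged to the G2M list and 29 to the S list, so 0 in a short set is near that share. Counting error was wider in TC71, where the median half-width of the 95% interval was 0.366 for genes of 50 to 60 CPM, against 0.226 in CHLA9. Single genes near the minimum can therefore pass 0.3 in TC71 by counting alone. Across the 2702 genes the ratios of the 2 lines had a Pearson correlation of 0.604 and a Spearman correlation of 0.361. Without the S and G2M lists these were 0.465 and 0.323 over 2629 genes, which still hold mitotic genes outside the lists, such as CCNB1. Genes are not independent replicates, and these values are descriptions.

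**Figure D2:**
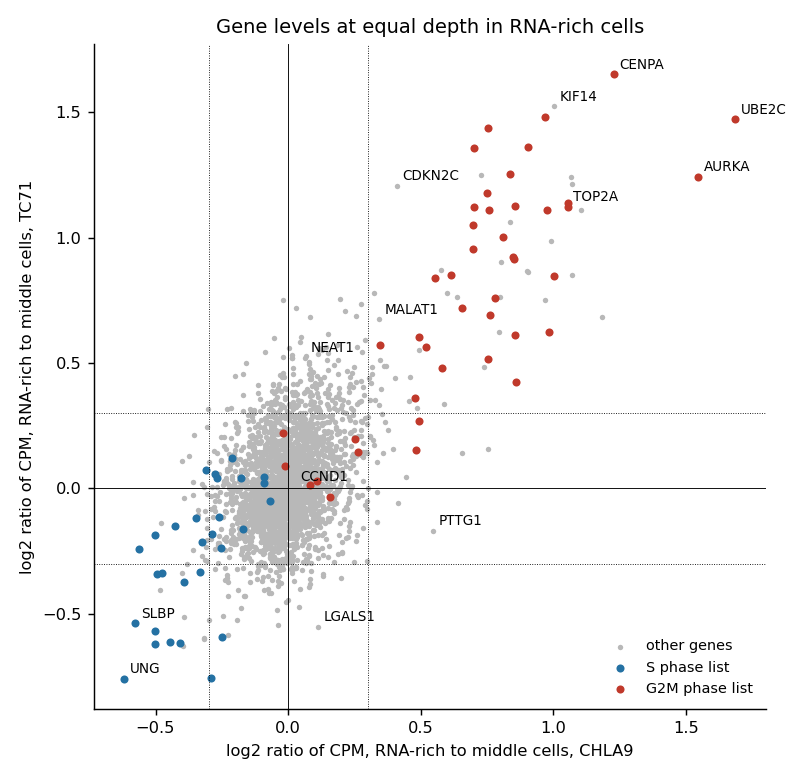
Log2 ratio of CPM between RNA-rich and middle cells in CHLA9 (x axis) and TC71 (y axis) for 2702 genes. Each point is a gene, in red for the G2M list, in blue for the S list and in grey otherwise, and dotted lines mark 0.3 in each direction. The cloud of other genes centers on 0, the G2M list extends to the upper right up to UBE2C, and the S list to the lower left down to UNG.

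The promoters of the genes at both ends carry different short words. They are shown because genes higher and genes lower in RNA-rich cells differed in how often they held 2 of these words. The CHR element (TTTGAA), which MuvB complexes bind, is known from genes of late cycle, and E2F factors bind words such as TTTCCCGC, TTTGGCGC and TTTCGCGC in genes of the G1/S transition. Sequences run from 250 bases before to 50 after the start of the gene, from RefSeq on GRCh38.p14, 5′ to 3′ in the direction of the gene. Capitals mark these words and the CCAAT box (CCAAT), on either strand. Shown first are 4 of the 10 highest genes, from those with a CHR element, and then 4 of the 10 lowest, from those with an E2F word.
CENPA (chr2:26785806-26786105, + strand): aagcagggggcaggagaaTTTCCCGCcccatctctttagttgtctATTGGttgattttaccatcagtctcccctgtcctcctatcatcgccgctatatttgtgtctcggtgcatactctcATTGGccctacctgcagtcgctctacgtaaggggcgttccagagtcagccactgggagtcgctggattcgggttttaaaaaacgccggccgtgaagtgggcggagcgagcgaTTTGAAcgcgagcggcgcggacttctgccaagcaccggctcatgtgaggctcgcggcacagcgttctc
ASPM (chr1:197146620-197146919, - strand): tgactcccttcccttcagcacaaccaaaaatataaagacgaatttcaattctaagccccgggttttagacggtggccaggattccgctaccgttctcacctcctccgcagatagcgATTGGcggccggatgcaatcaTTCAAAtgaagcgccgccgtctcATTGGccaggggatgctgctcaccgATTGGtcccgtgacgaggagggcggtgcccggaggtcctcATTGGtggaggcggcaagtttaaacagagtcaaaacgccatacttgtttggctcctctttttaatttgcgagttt
TOP2A (chr17:40417847-40418146, - strand): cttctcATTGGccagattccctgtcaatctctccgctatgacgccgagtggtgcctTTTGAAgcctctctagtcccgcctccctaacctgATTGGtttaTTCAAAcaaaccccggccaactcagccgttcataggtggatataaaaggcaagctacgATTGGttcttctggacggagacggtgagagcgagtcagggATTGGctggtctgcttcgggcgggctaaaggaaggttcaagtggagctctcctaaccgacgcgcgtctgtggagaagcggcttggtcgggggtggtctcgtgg
DEPDC1 (chr1:68497033-68497332, - strand): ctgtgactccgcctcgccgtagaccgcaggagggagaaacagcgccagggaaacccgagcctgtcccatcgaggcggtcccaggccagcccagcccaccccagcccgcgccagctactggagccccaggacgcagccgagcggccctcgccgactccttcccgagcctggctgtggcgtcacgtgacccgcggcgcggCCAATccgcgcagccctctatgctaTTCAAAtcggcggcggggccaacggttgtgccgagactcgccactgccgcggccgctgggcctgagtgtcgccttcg
DTL (chr1:212035498-212035797, + strand): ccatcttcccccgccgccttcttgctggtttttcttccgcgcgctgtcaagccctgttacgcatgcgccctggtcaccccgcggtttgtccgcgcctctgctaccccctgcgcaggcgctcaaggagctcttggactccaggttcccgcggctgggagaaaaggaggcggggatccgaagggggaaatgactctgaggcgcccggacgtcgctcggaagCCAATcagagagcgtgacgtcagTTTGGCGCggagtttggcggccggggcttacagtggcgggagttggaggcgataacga
CASP8AP2 (chr6:89829630-89829929, + strand): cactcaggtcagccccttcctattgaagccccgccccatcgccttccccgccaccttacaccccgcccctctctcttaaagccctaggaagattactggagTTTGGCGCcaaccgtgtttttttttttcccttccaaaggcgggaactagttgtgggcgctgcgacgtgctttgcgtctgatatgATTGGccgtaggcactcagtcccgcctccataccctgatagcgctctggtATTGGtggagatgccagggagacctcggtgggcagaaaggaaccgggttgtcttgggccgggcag
GINS2 (chr16:85688905-85689204, - strand): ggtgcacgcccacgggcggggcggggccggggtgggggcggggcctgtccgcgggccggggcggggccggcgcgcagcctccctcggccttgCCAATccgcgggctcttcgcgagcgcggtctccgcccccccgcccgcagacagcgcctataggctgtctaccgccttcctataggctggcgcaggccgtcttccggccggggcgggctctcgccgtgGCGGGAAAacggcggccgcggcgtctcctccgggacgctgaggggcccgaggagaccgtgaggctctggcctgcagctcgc
PCNA (chr20:5126573-5126872, - strand): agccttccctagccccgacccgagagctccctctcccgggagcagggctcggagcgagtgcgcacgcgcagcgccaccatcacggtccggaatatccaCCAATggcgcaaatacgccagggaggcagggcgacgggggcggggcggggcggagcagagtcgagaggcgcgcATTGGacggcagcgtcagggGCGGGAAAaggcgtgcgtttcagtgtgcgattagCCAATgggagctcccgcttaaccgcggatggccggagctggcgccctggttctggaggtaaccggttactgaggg

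Among the 74 higher genes, 62 had a promoter in the table, and 35 of these (56.5%, 95% Clopper-Pearson interval 43.3 to 69.0) held a CHR element. The share was 10.6% among the 2200 promoters of genes past the minimum and 15.4% among all 27305 promoters. Among the 17 lower genes, 16 had a promoter, of which 1 held a CHR element (6.25%, 0.158 to 30.2). The E2F words gave the opposite order. They were found in 8 of the 16 lower genes (50%, 24.7 to 75.3), in 3 of the 62 higher genes (4.84%, 1.01 to 13.5) and in 6.55% of genes past the minimum, against 2.79% of all promoters. The CCAAT box was frequent at both ends, with 58.1% of higher and 68.8% of lower genes against 39.3% of genes past the minimum and 35.7% of all promoters. Neighboring words can share a base at their ends. A CHR element and a CCAAT box together stood in 28 of the 62 higher genes (45.2%) and in 5.55% of genes past the minimum. These are matches of letters in a fixed window, and the intervals here are over genes, which are not independent draws. SLBP, RFC4, ARL6IP1 and CENPE, also among the genes at both ends, held none of the words there.

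Ranked on the line with the smaller ratio, UBE2C came first among the genes higher in RNA-rich cells. UBE2C, the ubiquitin-conjugating enzyme of the anaphase-promoting complex, had 325 CPM (95% Poisson interval 308 to 342) in RNA-rich and 101 (94.5 to 108) in middle cells of CHLA9. In TC71 its levels were 401 (371 to 432) against 144 (132 to 158). The log2 ratios were 1.69 (95% interval 1.57 to 1.81) and 1.47 (1.30 to 1.64), and at full depth an RNA-rich cell of CHLA9 held 21.9 UMIs of UBE2C against 3.53 in a middle cell. The spans of the levels did not overlap in either line.

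AURKA, the Aurora kinase of spindle poles, had 155 CPM in RNA-rich and 53.1 in middle cells of CHLA9, and 238 against 100.3 in TC71. CENPA, the histone variant of centromeres, stood at 78.2 against 33.33 CPM in CHLA9 and at 90.2 against 28.7 in TC71, a log2 ratio of 1.23 (1.00 to 1.46) and 1.65 (1.28 to 2.03). TOP2A, the topoisomerase that untangles sister chromatids, was the most abundant of the 10 highest genes in CHLA9, with 1119 against 539 CPM in CHLA9 and 414.5 against 190.1 in TC71. All of these levels were more than 2-fold higher in the RNA-rich cells, and the lines gave ratios of like size.

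ASPM, a spindle pole protein, had log2 ratios of 1.10 (1.02 to 1.19) in CHLA9 and 1.11 (0.96 to 1.26) in TC71. CENPE, a kinesin of the kinetochore, had 1.05 (0.93 to 1.18) and 1.14 (0.98 to 1.30). SGO2, which protects cohesion at centromeres, had 1.07 and 1.24, and KIF14, a kinesin of cytokinesis, had 1.00 and 1.52. DEPDC1 had 0.99 in both lines. ARL6IP1, a protein that shapes the endoplasmic reticulum, had 1.07 (0.941 to 1.198) in CHLA9 and 1.22 (0.95 to 1.49) in TC71. ARL6IP1, ASPM, SGO2, KIF14 and DEPDC1 are in neither cycle list, whereas CENPE is in the G2M list. The next values are again those of ARL6IP1. Its level was 226.3 against 107.8 CPM in CHLA9 and 143.4 against 61.74 in TC71. The intervals of these 6 genes all lay above 0.7 in both lines.

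The G2M list as a whole was also higher in RNA-rich cells. Of its 54 genes 44 passed the minimum, and 37 of these in CHLA9 and 35 in TC71 were past 0.3 upward, with 0 downward in either line. Their median log2 ratio was 0.75 in CHLA9 and 0.84 in TC71. At 10000 UMIs, the median RNA-rich cell of CHLA9 held 126 UMIs of the list (10th to 90th percentile 57 to 240) and the median middle cell 77 (41 to 174). In TC71 these were 132 (70 to 184) and 74 (54 to 128.6). The spans overlap, so RNA-rich cells without many of these UMIs exist in both lines. Outside both lists, PLK1, a mitotic kinase, CCNA2, cyclin A2, and KPNA2, an importin, were also past 0.3 in both lines, at 1.07, 0.80 and 0.83 in CHLA9 and 0.85, 0.76 and 1.06 in TC71. These 3 were picked after their values were seen. CTCF and CBX5, chromatin proteins that are also members of the list, were the lowest of it by the mean of the lines. Their log2 ratios were 0.08 and -0.01 in CHLA9 and 0.01 and 0.09 in TC71.

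UNG was the lowest gene in RNA-rich cells of both lines. UNG, the uracil-DNA glycosylase, had 55.2 CPM (48.6 to 62.5) in RNA-rich and 84.7 (78.8 to 91.0) in middle cells of CHLA9. In TC71 it had 49.7 (39.8 to 61.4) against 84.1 (74.7 to 94.3). Its log2 ratios were -0.62 (-0.83 to -0.41) and -0.76 (-1.12 to -0.41), the lowest of the 2702 genes. The numbers of UMIs per cell at full depth were not lower: 4.07 in RNA-rich against 2.89 in middle cells of CHLA9, and 2.86 against 2.83 in TC71. Over all cells it was not a fixed number, since its slope on the total, defined further on, was 0.47 in CHLA9 and 0.74 in TC71.

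SLBP, which binds the stem-loop of histone messengers, had log2 ratios of -0.58 (-0.70 to -0.45) in CHLA9 and -0.54 (-0.79 to -0.29) in TC71. PCNA, the sliding clamp of DNA polymerases, stood at 286 against 375 CPM in CHLA9 and at 220.2 against 285.2 in TC71. MSH6, a mismatch repair protein, had 172 against 240.1 CPM and 90.2 against 119.4. The spans of PCNA and MSH6 levels did not overlap in either line. TIPIN of the fork protection complex, DTL, which marks CDT1 for destruction, and CASP8AP2, needed for histone gene expression, lay between -0.62 and -0.45. GINS2 of the replicative helicase, MCM10 and RFC4, a subunit of the clamp loader, lay between -0.63 and -0.39. DTL in TC71 was the gene with no more UMIs per RNA-rich cell than per middle cell, at 2.53 and 2.60.

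Of the 29 S list genes past the minimum, of 43, 16 in CHLA9 and 12 in TC71 were past 0.3 downward and 0 upward. The median log2 ratios were -0.32 and -0.21. All 29 lay below 0 in CHLA9, whereas 7 lay above 0 in TC71, and of all 2702 genes 1241 and 1394 lay above 0. RRM2, a subunit of ribonucleotide reductase, and USP1 were at the upper end of the list, with -0.09 for both in CHLA9 and 0.04 and 0.02 in TC71. In CHLA9 this list depended on the reference: set against cells of the 10th to 30th percentile, its median was 0.07.

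The cells were then split into 10 bins of equal size by total UMIs, and the UMIs of a gene per cell were followed along them at full depth. A slope of 1 on log2 scales means that a gene is proportional to the total, and 0 that its number per cell is the same in all bins. The median slope was 0.981 in CHLA9 (5th to 95th percentile 0.821 to 1.3) and 1.01 in TC71 (0.878 to 1.19). A median near 1 follows largely from splitting the cells by the total that the genes add up to. No gene lay under 0.5 in both lines, and 11 lay over 1.5 in both. CCND1, cyclin D1 of the G1 phase, was almost proportional, with slopes of 0.99 and 1.02, and 53.5 UMIs per cell in the lowest bin of CHLA9 against 176.8 in the highest. POLR2A, the catalytic subunit of RNA polymerase II, had 1.02 and 0.99. RB1, the retinoblastoma protein that growing cells are known to dilute, had slopes of 1.21 and 1.09 for its messenger, at about 40 CPM in both groups of CHLA9 cells and 44.5 against 43.2 in TC71. MYC lay under the proportional line at 0.67 and 0.82. Between RNA-rich and middle cells alone, its log2 ratio was near 0, at -0.025 in CHLA9 and -0.076 in TC71.

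**Figure D3:**
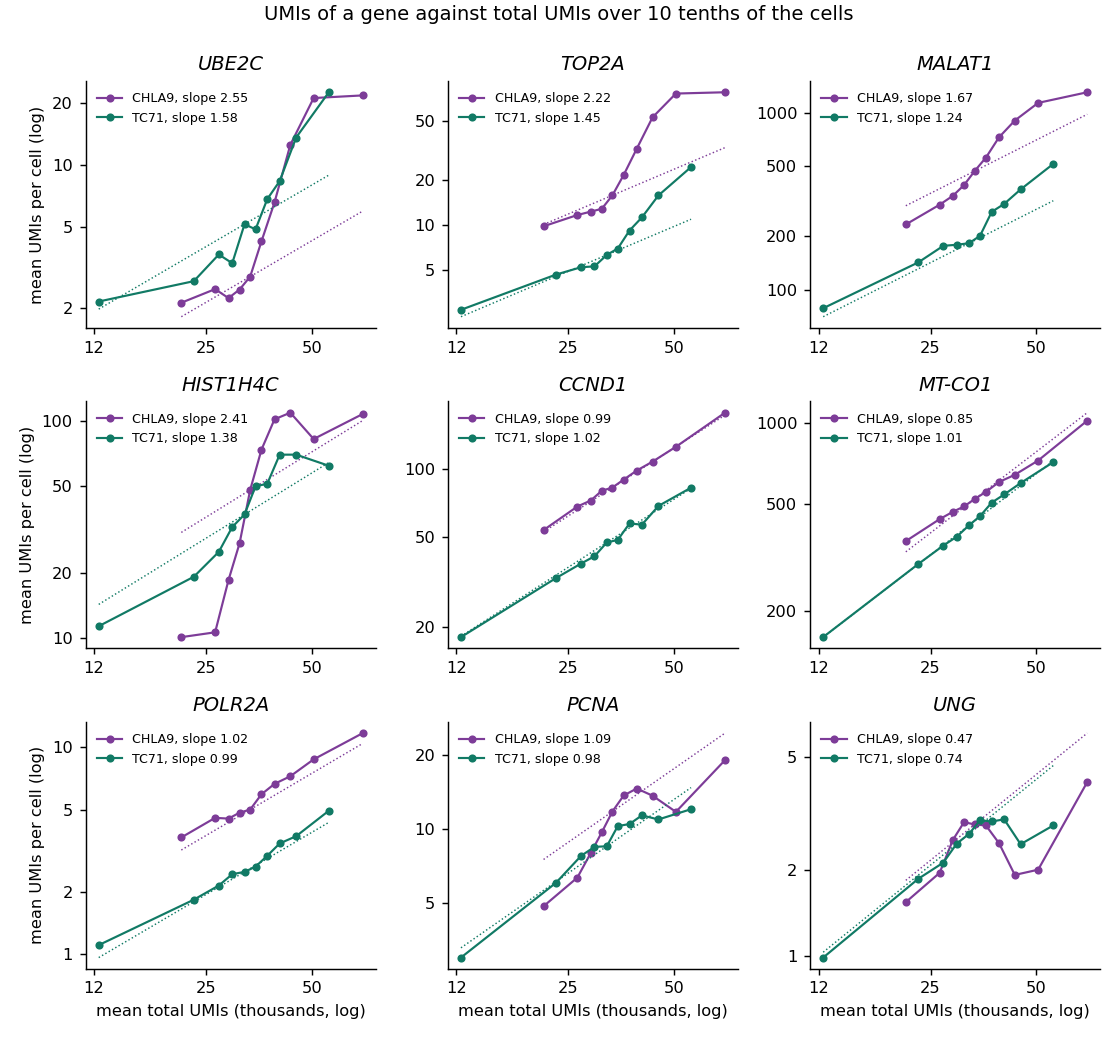
Mean UMIs of 9 genes per cell (y axis, log) against the mean total UMIs of 10 bins of the cells (x axis, in units of 1000, log), in violet for CHLA9 and green for TC71. Dotted lines show proportion to the total, drawn through the fifth bin. CCND1 and POLR2A follow them, UBE2C and TOP2A rise above them in the upper bins, and UNG lies flatter than they do, with a slope of 0.47 in CHLA9.

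Several genes were not straight along the bins. HIST1H4C, a replication-dependent histone H4 gene, had slopes of 2.41 and 1.38, although its level was lower in RNA-rich than in middle cells, with log2 ratios of -0.21 in CHLA9 and -0.22 in TC71. At equal depth it went from 532.4 CPM in the lowest bin of CHLA9 to 2566 in the seventh and 1510 in the highest. Histone messengers of this kind lack poly(A) tails and are captured poorly by this method. PCNA in CHLA9 had 234 CPM in the lowest bin, 392.6 in the sixth and 240.6 in the ninth. UBE2C was at 97.7 CPM in the lowest bin of CHLA9, 80.4 in the fourth, 420.3 in the ninth and 325.4 in the highest, whereas in TC71 its highest level, 400.6, was in the highest bin. CCNB1, the mitotic cyclin B1, was high at both ends in CHLA9, with 268.3 CPM in the lowest bin, 158.5 in the sixth and 446.7 in the ninth.

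The phase calls followed the same course. They were made from the same S and G2M lists on the same thinned UMIs, so they are not independent of the list ratios above. With scanpy on the thinned cells, 293 of 449 RNA-rich cells of CHLA9 were called G2M (65.3%, 95% Clopper-Pearson interval 60.7 to 69.7), against 244 of 897 middle cells (27.2%, 24.3 to 30.2). In TC71, 157 of 173 RNA-rich cells were called G2M (90.8%, 85.4 to 94.6), against 206 of 345 middle cells (59.7%, 54.3 to 64.9). S calls went the other way, with 33.4% of RNA-rich and 68.0% of middle cells in CHLA9 and 8.67% against 38.6% in TC71. G1 calls were few, at 1.34% and 4.79% in CHLA9 and 0.578% and 1.74% in TC71. The level of these shares depended on the caller. Seurat on the same cells called 59.0% of RNA-rich and 23.0% of middle cells G2M in CHLA9, and 69.9% against 27.8% in TC71. It called G1 in 11.8% of RNA-rich and 18.4% of middle cells of CHLA9, and in 9.83% against 19.4% in TC71. The order of RNA-rich and middle cells was the same by both callers.

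Along the bins of CHLA9, the Seurat G1 share fell from 43.4% in the lowest to 4.24% in the eighth. The S share peaked at 61.8% in the sixth, and the G2M share at 72.1% in the ninth, before 59.2% in the highest. The share called doublet was 6.25% in the ninth bin and 35.3% in the highest. In TC71 the Seurat G2M share was highest in the highest bin, at 70.3%, where 1.16% were called doublets. Without the cells called doublets, the G2M share of RNA-rich cells by scanpy was 67.8% in CHLA9 and 90.7% in TC71, and the median log2 ratios in CHLA9 were 0.99 in place of 0.75 for the G2M list and -0.39 in place of -0.32 for the S list.

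**Figure D4:**
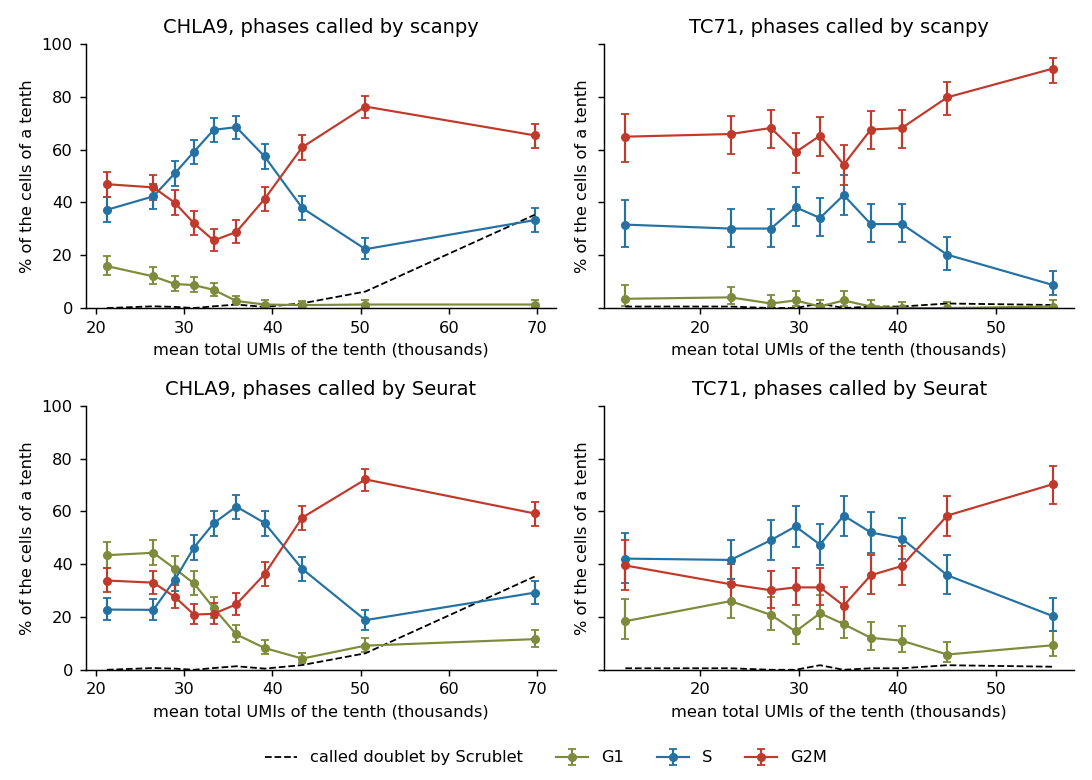
Percent of the cells of each bin (y axis) called G1, S or G2M against the mean total UMIs of the bin (x axis, in units of 1000), with exact 95% intervals for counting error. Columns are CHLA9 and TC71, rows are scanpy and Seurat, and the dashed line is the percent called doublet. In CHLA9, G2M peaks in the ninth bin while the doublet share reaches 35.3% in the highest.

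Since the RNA-rich cells held more G2M cells, the middle cells were weighted to the same mix of S and G2M list UMIs, over 9 strata, and the ratios taken again. Under this weighting, which was chosen after seeing the data, 12 genes were higher in both lines, of which 9 were among the 74 called without it, and 1 was lower, THUMPD3-AS1, which was not among the 17. MAP1A, MGA and NEAT1 passed 0.3 in both lines with the weighting only, at 0.314, 0.301 and 0.316 in CHLA9. Middle cells weighted to the Seurat phases of RNA-rich cells instead gave 0.22, 0.229 and 0.23 in CHLA9, under 0.3. DBF4 and INCENP, also among the 12, fell under 0.3 in CHLA9 by those weights, at 0.225 and 0.265. The 12 were ANLN, ASPM, AURKA, CDK1, DBF4, INCENP, KIF23, MAP1A, MGA, NEAT1, TOP2A and UBE2C, of which 6 belong to the cycle lists. UBE2C kept log2 ratios of 0.78 in CHLA9 and 0.81 in TC71, and CDK1, the kinase that starts mitosis, 0.54 and 1.03. The weights were built on the UMIs of the S and G2M lists, so the medians of these lists were brought toward 0 by construction, to 0.09 in CHLA9 and 0.29 in TC71 for the G2M list and to -0.03 and -0.01 for the S list. DTL, lower without the weighting, stood at 0.30 in CHLA9 and -0.16 in TC71 with it. Of the 29 S list genes, 0 in CHLA9 and 5 in TC71 were past 0.3 downward with the weighting, against 17 and 87 of all 2702 genes. Across all 2702 genes the Pearson correlation of the lines dropped from 0.604 to 0.217.

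Cells ranked anew within a Seurat phase gave a further view. The phases were called from the S and G2M lists, so values of these lists within a phase are not independent of the calls. Within the G2M cells, 173 RNA-rich cells of CHLA9 with a median of 74434 UMIs were set against 345 with 40689, and 66 of TC71 with 57946 against 131 with 37029. The correlation of the lines across genes was 0.0766 there and 0.0199 within S cells. The S cells compared were 173 against 345 in CHLA9 and 76 against 151 in TC71. Cells called doublets were kept in both phases, and the part of doublets and of counting error in these values was not tested. The G2M list had a median of -0.08 within the G2M cells of CHLA9, with 2 genes past 0.3 upward and 4 downward of 44, and of 0.13 in TC71, with 18 and 1. Of all 2702 genes, 134 passed upward and 94 downward within the G2M cells of CHLA9, and 275 and 213 within those of TC71. UBE2C was at 0.34 and 0.78 there, CENPA at -0.46 and 0.32, KIF14 at -0.14 and 0.53 and TOP2A at -0.02 and 0.36. HIST1H4C was at -0.95 and -0.94. Within the S cells HIST1H4C was at -0.02 in CHLA9 and 0.46 in TC71.

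The lists that follow are read against all 2702 genes, of which 5.22% in CHLA9 and 13% in TC71 passed 0.3 in one direction or the other. None of 80 cytosolic ribosomal protein genes, the most abundant list, passed in either line. They lay slightly low as a group, with 14 of 80 above 0 in CHLA9 and 7 in TC71, against 1241 and 1394 of all 2702 genes. The log2 ratios of the summed UMIs of these 80 genes were -0.034 (-0.037 to -0.030) and -0.086 (-0.092 to -0.080). Their medians were -0.03 in CHLA9 and -0.10 in TC71, and together they made 171300 CPM in RNA-rich and 175400 in middle cells of CHLA9, and 194300 against 206200 in TC71. RPS26 and RPL31 were the lowest by the mean of the lines, with -0.20 and -0.16 in CHLA9 and -0.22 and -0.23 in TC71. RPL23 and RPS20 were the highest, with -0.03 and -0.01 in CHLA9 and 0.19 and 0.18 in TC71. In translation factors the medians were -0.03 and 0.00, with 0 past 0.3 in CHLA9 and 2 of 42 downward in TC71. One of these was EIF4A1, the RNA helicase of the cap complex, with -0.17 in CHLA9 and -0.32 in TC71. Of 52 genes of the nucleolus and ribosome assembly, 0 passed in CHLA9, and 2 upward and 1 downward in TC71. Of 24 genes of RNA polymerase II and Mediator, 0 passed in CHLA9 and 3 in TC71, among them GTF2E2, a subunit of TFIIE, at 0.57 (0.27 to 0.87).

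None of 12 mitochondrially encoded genes passed 0.3, which in a list this short is near the share over all genes, and their medians were 0.01 and -0.01. MT-ND2, of complex I, was the highest by the mean of the lines, with 0.18 and 0.17, and MT-CO1, of complex IV, had -0.10 and -0.03. The 77 nuclear genes of the respiratory chain had medians of -0.06 and -0.10. Of these, 14 in CHLA9 and 16 in TC71 lay above 0, against 1241 and 1394 of all 2702 genes. The log2 ratios of the summed UMIs of the 77 were -0.062 (-0.074 to -0.051) and -0.109 (-0.125 to -0.094). None passed 0.3 in CHLA9, and 1 upward and 3 downward did in TC71. NDUFA3 was the lowest, with -0.23 in CHLA9 and -0.35 in TC71. The 47 mitochondrial ribosomal protein genes had medians of 0.01 and -0.05, with MRPL17 past 0.3 downward in CHLA9, at -0.36, and 0.03 in TC71.

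In the proteasome list, medians were -0.06 and -0.08, with 0 of 33 past 0.3 in CHLA9 and 1 upward in TC71, PSMD11. In the chaperone list medians were -0.03 and -0.01 over 31 genes, with 0 past 0.3 in CHLA9 and 1 upward and 3 downward in TC71, or 12.9% against 13% of all genes. Its extremes lay on opposite sides of 0. HSPA8, the constitutive HSP70, had 1222 against 1036 CPM in CHLA9 and 1530 against 1225 in TC71, a log2 ratio of 0.24 and 0.32. HSPB1, the small heat shock protein HSP27, had 230 against 273 CPM and 135 against 192, a ratio of -0.24 (-0.35 to -0.14) and -0.51 (-0.73 to -0.29).

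For the 52 genes of the ER and secretory pathway the medians were -0.02 and -0.07, for 11 glycolysis genes -0.10 and -0.03, and for 14 genes of cholesterol and fatty acid synthesis -0.01 and -0.08. None of these passed 0.3 in CHLA9. In TC71, 1 upward and 1 downward gene of the ER list passed, and 1 upward gene of glycolysis, PFKP, a phosphofructokinase, at 0.35. PFKP rested on few UMIs, and another random thinning gave -0.06 in TC71. The ATF4 and amino acid list had medians of 0.03 and 0.10, with 0 past 0.3 in CHLA9 and 4 of 16 upward in TC71 (25%, against 9.66% of all genes). ATF4 itself, the transcription factor of the amino acid response, was at 0.23 (0.08 to 0.38) and 0.41 (0.18 to 0.63).

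Splicing factors had medians of -0.05 and 0.01 over 66 genes, with 2 downward in CHLA9 and 3 upward and 1 downward in TC71. SRSF2 was at -0.30 and -0.16, and SNRPA, of the U1 particle, at -0.22 and -0.28. Among 8 nuclear and long noncoding RNAs past the minimum, 1 in CHLA9 and 4 in TC71 were upward, and medians were 0.02 and 0.20. MALAT1, an abundant RNA of nuclear speckles, had 18650 CPM in RNA-rich and 14700 in middle cells of CHLA9 and 9224 against 5783 in TC71. Its log2 ratios were 0.34 (0.33 to 0.36) and 0.67 (0.64 to 0.70). Per cell at full depth, MALAT1 had 1300.0 UMIs in RNA-rich against 512.1 in middle cells of CHLA9, and 511.5 against 192.3 in TC71. NEAT1, the RNA of paraspeckles, was at 0.06 and 0.52. With the cycle mix weighted, MALAT1 was at 0.30 and 0.36 and NEAT1 at 0.32 and 0.45.

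Of 39 actin, myosin and thymosin genes, 0 passed in CHLA9 and 4 upward and 3 downward in TC71 (17.9%, against 13% of all genes), with medians of -0.03 and -0.02. Of 18 tubulin and kinesin genes, 1 in CHLA9 and 2 in TC71 were upward, with KIF5B at 0.36 and 0.26 and MAP1B at 0.29 and 0.59. With the cycle mix weighted, KIF5B was at 0.025 and 0.051 and MAP1B at 0.298 and 0.47. The 17 replication-independent histone and chromatin genes had medians of 0.02 and -0.06. Of these H2AFX, the histone marked at DNA breaks, was upward in both lines, at 0.46 and 0.44. It passed 0.3 in neither line with the cycle mix weighted, at 0.204 and 0.196. The 3 replication-dependent histone genes past the minimum had medians of -0.21 and 0.00. Of 4 immediate early genes, 0 passed in CHLA9 and 1 in each direction in TC71.

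**Figure D5:**
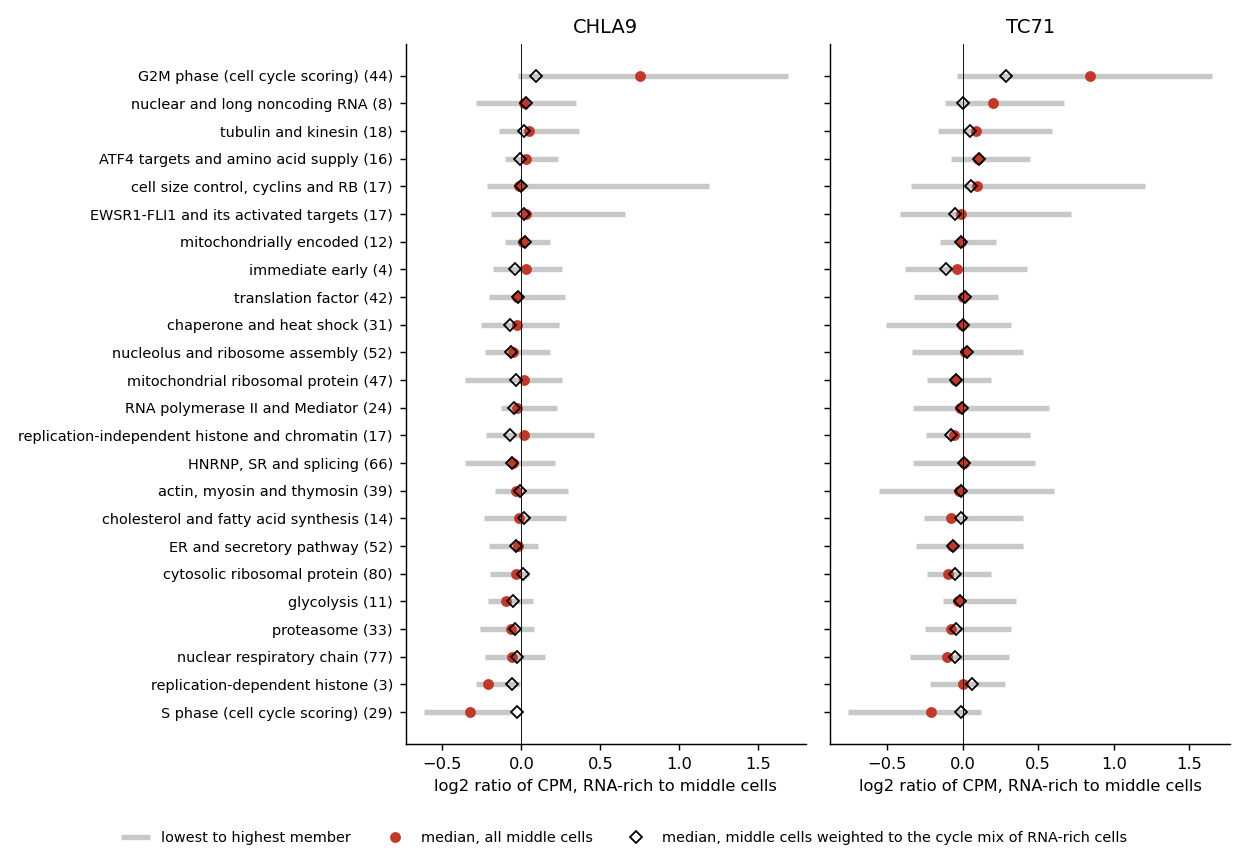
Median log2 ratio of CPM between RNA-rich and middle cells (x axis) for 24 gene lists (y axis, number of genes past the minimum in brackets) in CHLA9 (left) and TC71 (right). Red points use all middle cells, open diamonds the middle cells weighted to the cycle mix of RNA-rich cells, and grey bars run from the lowest to the highest member. The G2M list, at 0.75 and 0.84, and the S list, at -0.32 and -0.21, lie farthest from 0, and weighting brings them toward 0 by construction, since the weights use the UMIs of these lists.

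In the list of cell size control, cyclins and RB, 3 of 17 genes in CHLA9 and 5 in TC71 were upward and 0 and 1 downward, with medians of -0.02 and 0.10. CCNB1 was at 1.19 (1.08 to 1.29) and 0.69 (0.52 to 0.85). CDKN2C, the CDK inhibitor p18, had 70.4 against 53.0 CPM in CHLA9 and 80.3 against 34.8 in TC71, a ratio of 0.41 (0.20 to 0.62) and 1.21 (0.84 to 1.57). With the cycle mix weighted, CDKN2C was at -0.002 and 0.91 and CCNB1 at 0.09 and 0.01, so that CDKN2C no longer passed in CHLA9 and CCNB1 in neither line. CDK4 was at -0.22 and -0.20 without weights. The genes of the fusion and its activated targets had medians of 0.03 and -0.01 over 17 genes, and only AURKB, also a mitotic kinase, passed upward in both lines, at 0.66 and 0.72, and it passed in neither with the cycle mix weighted, at 0.04 and 0.01. EWSR1 had 155.9 against 150.4 CPM in CHLA9 and 104.6 against 113 in TC71. FLI1, under the minimum, had 37.2 against 40.8 CPM and 24.9 against 24.4. The intervals of the log2 ratios of EWSR1, FLI1 and RB1 held 0 in both lines, so that differences in these genes were not detectable at this depth.

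Transcript length moved with the ratios, more in TC71. Lengths were taken from GENCODE 44 canonical transcripts, which were found for 2700 of the 2702 genes. Spearman's rho between length and log2 ratio across genes was 0.199 in CHLA9 and 0.424 in TC71, and without the S and G2M lists 0.206 and 0.438. In the fifth of genes with the shortest transcripts, with a median of 849 bases, the median log2 ratio was -0.03 in CHLA9 and -0.10 in TC71, and 1.3% were higher past 0.3 in TC71. In the fifth with the longest, with a median of 7755 bases, these were 0.03 and 0.13, and 18.7% were higher in TC71, against 9.66% of all genes. For GC content of the transcript, rho was -0.0295 in CHLA9 and -0.129 in TC71. Genes of like length share functions and levels, and the part of length in the ratios was not tested.

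The ratios of a few genes differed between the lines. PTTG1, securin, had a log2 ratio of 0.55 (0.42 to 0.68) in CHLA9 and -0.17 (-0.36 to 0.02) in TC71, and UBE2S, a partner of UBE2C, 0.76 (0.69 to 0.82) and 0.16 (0.06 to 0.26). With the cycle mix weighted, PTTG1 was at -0.006 and -0.09 and UBE2S at 0.10 and -0.005, and against cells of the 10th to 30th percentile PTTG1 was at -0.28 in CHLA9. CCDC34 was at 0.30 and -0.29. In the other direction, KCNQ1OT1, a long antisense RNA, was at -0.23 and 0.31, MDN1, of ribosome assembly, at -0.11 and 0.38, and CEP350, a centrosomal protein, at 0.21 and 0.71. These 6 genes were the 3 in each direction whose ratios lay furthest apart, out of those of at least 100 CPM, and with 1 library per line the differences were not tested.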

How the data were processed

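The deposited values are raw UMI counts of 33538 genes in each barcode, which the authors made with Cell Ranger 3.1.0 against hg38 and did not normalize. Libraries came from the 10x Genomics 3′ kit, and 1 library of each of 2 lines was used. Lengths and promoters came from GENCODE 44 and RefSeq, matched by gene identifier or symbol.

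A barcode was kept as a cell if it had 5000 to 100000 UMIs, 2000 genes or more and a mitochondrial share no higher than 15%, and 39 CHLA9 barcodes lay over the upper limit. Each cell was thinned without replacement to 10000 UMIs (numpy 2.4.6, seed 1). No RNA-rich or middle cell fell below that depth, and 14 CHLA9 and 59 TC71 cells with the fewest UMIs did and were left out of thinned values. Thinned UMIs were summed per group as CPM, with exact 95% Poisson intervals, and log2 ratios had exact conditional binomial intervals (scipy 1.17.1). Both cover counting error only. Genes of at least 50 CPM over both groups in each line were compared, and a call was a log2 ratio of at least 0.3 in size. Every gene adds to the totals that chose the cells, and an alternative ranked cells on a set of genes that did not hold the gene.

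Phases came from scanpy 1.11.5 with genes in at least 10 thinned cells, and from Seurat 5.3.0 in R 4.3.3. Scrublet was run through scanpy. Tables were handled with pandas 2.3.3 and figures drawn with matplotlib 3.10.9.

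Named genes were the 10 highest and 10 lowest by the line nearer to 0, the 2 highest and 2 lowest of each list by the mean of the lines, the 3 most different between lines in each direction at 100 CPM or more, and EWSR1, FLI1, RB1, CCND1, MYC and POLR2A. Genes past the threshold under the cycle weighting, PLK1, CCNA2 and KPNA2 were named after their values were seen, and CD99, NR0B1 and NKX2-2 as markers of the lines. The cells and the 25 lists were chosen with earlier results of these data known. The result for 1 gene that the rule names is not reported here.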

Additional observations from a re-analysis of the deposited data

Results flagged for a closer look

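Among the genes the report names, in 5 the ratio of RNA-rich to middle cells was positive in one line and negative in the other. In these 5, both counting intervals lay on their own side of 0. Over all 2702 genes, 22 met both conditions. KCNQ1OT1 and CCDC34 were named by the rule that picks the largest differences between the lines. With 1 library per line the differences were not tested. The log2 ratio of LGALS1, galectin-1, was 0.11 in CHLA9 and -0.55 in TC71, that of KCNQ1OT1 -0.23 and 0.31, that of CCDC34 0.30 and -0.29, that of PSMD11, a proteasome subunit, -0.15 and 0.32, and that of MT-ATP6, a mitochondrially encoded subunit of ATP synthase, 0.05 and -0.15. LGALS1 was also far less abundant in TC71, with 97.4 CPM in middle cells against 648.4 in CHLA9.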

How the results depend on the processing

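Of 4174 alternative values of log2 ratios for single genes, 3680 moved by less than the set limit, 475 moved by more and 19 reversed. Of 916 alternative list medians, 863 stayed within 0.1, 52 moved and 1 reversed. Of 120 alternative gene counts 78 stayed within 1.5 times and 42 did not. Where a value changed, the cause was not tested.

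Against cells of the 10th to 30th percentile the CHLA9 median of the S list was 0.075, with MCM10 at 0.36, PCNA at 0.12, RFC4 at 0.09 and PTTG1 at -0.28. That reference gave 170 higher genes in CHLA9, 11 lower in both lines and a G2M list median of 0.64 in TC71.

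Accounting for the cycle moved both lists. With ratios averaged within phases, where S and G2M in CHLA9 and G2M alone in TC71 had at least 20 cells per group, 15 genes were higher and 11 lower in CHLA9, and 7 higher and 0 lower in both lines. The S list medians were -0.12 and -0.045 and the G2M list medians 0.12 and 0.48. DTL stood at 0.17, MCM10 at 0.031 and CDKN2C at -0.017 in CHLA9. Weighting to the cycle mix, each setting with its own level minimum, gave 32 higher and 19 lower in CHLA9 and 14 higher and 1 lower in both lines, with S list medians of -0.026 and -0.009 and G2M list medians of 0.094 and 0.29. In CHLA9 it put DTL at 0.30, MCM10 at 0.16, GINS2 at 0.06, CASP8AP2 at 0.043, PCNA at 0.025, CDKN2C at -0.002 and PTTG1 at -0.006. Weighting to Seurat phases gave 18 and 10 in CHLA9 and 9 and 1 in both, with S list medians of -0.094 and -0.039 and G2M list medians of 0.11 and 0.25, DTL at 0.072, MCM10 at 0.036, GINS2 at 0.011 and CDKN2C at -0.023 in CHLA9. Both weightings were chosen after seeing the data, as were Seurat phases and the removal of called doublets.

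Without the 8% highest Scrublet scores, CHLA9 had 166 higher and 74 lower genes, medians of -0.42 for the S and 1.10 for the G2M list, and 24.4% S and 74.1% G2M among RNA-rich cells, and TC71 had 0.0% G1. Without called doublets the G2M list median in CHLA9 was 0.99. The top 5% of cells gave 159 lower genes in TC71 and a G2M list median of 0.65 in CHLA9, and the top 20% gave 52, with medians of 0.94 and 0.67. Thinning to 5000 UMIs gave 74 lower genes in CHLA9 and 176 in TC71. No thinning gave 26 lower in CHLA9 and 167 higher and 39 lower in TC71. At most 10% mitochondrial UMIs gave 152 lower in TC71. Another thinning seed put PFKP at -0.059 in TC71.

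A minimum of 100 CPM gave 41 higher and 15 lower in CHLA9, 73 and 33 in TC71 and 32 and 6 in both. No minimum gave 1831 and 1641, 3526 and 2029, and 835 and 495. A threshold of 0.5 gave 55 and 6, 86 and 18, and 48 and 4.

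By Seurat, RNA-rich and middle cells were 11.8% and 18.4% G1 in CHLA9, 59.0% and 23.0% G2M, and 58.6% of middle cells were S. In TC71 G1 was 9.83% and 19.4%, S 20.2% and 52.8%, and G2M 69.9% and 27.8%. At full depth, scanpy called 0.58% G1 and 44.3% S in middle cells of TC71. Genes per cell at full depth were 1738 higher in RNA-rich cells of CHLA9 and 1415 in TC71. No paired analysis was possible because there is a single library per line.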
